A study of Mus musculus with 4 samples.

Results

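Cytochrome P450 genes, named Cyp in the mouse, were followed in the brain of newborn mice whose mothers had received titanium dioxide nanoparticles (TiO2-NP) during pregnancy. A member was any gene with a probe under a RefSeq accession whose symbol was Cyp followed by a family number, a subfamily letter and a gene number, which leaves out Cyp51. Of the 20660 genes named in this way on the array, 89 were members, and the gene table held 94 such symbols. The probe with the highest mean log2 signal over the arrays stood for each gene. 72 members had 1 probe and 17 had more.

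The data came from 4 arrays of 1 color, each of which held a single labeled pool of RNA, so that a brighter spot means more of its target. Pregnant C57BL/6J mice of the TiO2-H group had received 100 µg TiO2-NP per mouse into the trachea, in 25 µL of suspension at gestational day 10.5 (other labels give day 14). Sham dams had received vehicle by the same route. Whole brains were taken at postnatal day 1. Each exposure had a male and a female group, and each of the 4 groups had 1 array. A pool held the RNA of 2 offspring per dam, from 5 Sham dams or from 6 TiO2-H dams. There was thus no replicate within a group, no test within a sex was possible, and litter as well as the row of the slide went with exposure and cannot be told apart from it.

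The sex labels of the TiO2-H arrays went against the sex-linked genes. Xist, which is transcribed from the inactive X chromosome, was measured at 276 in Sham female and at 347 in the array labelled TiO2-H male, and was dim in the other two. Eif2s3y, which lies on the Y chromosome, gave 3519 in Sham male, 420 in Sham female, 6.40 under the label TiO2-H male and 4345 under the label TiO2-H female. The TiO2-H arrays are therefore called by their labels throughout, and a direction within a sex holds for the labels only. Within each label, Xist was measured on an array and dim on the array it was compared with. Sex can therefore not be told apart from exposure in any ratio within a label. Sham female also held Y-linked signal beside Xist, with Ddx3y at 142.5 there against 7.18 under the label TiO2-H male. It is thus not a clean female reference in any comparison that uses it, and the source of this signal was not tested. The share of spots well above background ran from 56.2% to 61.2% per array, no spot was saturated, and all markers tested of neurons, glia, microglia and endothelium were well above background on every array. The number of arrays limits the precision.

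Cytochrome P450 enzymes are heme proteins that insert oxygen into lipids, hormones and foreign compounds, with electrons from cytochrome P450 reductase in the endoplasmic reticulum or from ferredoxin in mitochondria. Members with fixed roles act on cholesterol, steroid hormones, retinoic acid and vitamin D, whereas large clusters of related genes act on fatty acids and drugs and are mostly known from liver. In brain, the enzymes are known for cholesterol removal, for the breakdown of retinoic acid in development and for making local steroids.

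Most P450 genes were dim in newborn brain. The scanner software marks a spot as well above background when its signal clears the local background by a set margin, and this mark is called detection here. In all, 32 of 89 members (36%) were detected on all 4 arrays, against 70.8% of all genes. A further 16 members were detected on 1 to 3 arrays. The remaining 41 members (46.1%, against 21.8% of all genes) were detected on no array, with signals between 4.64 and 38.5. Per array, 38 members were detected on Sham male, 36 on Sham female, 39 on the array labelled TiO2-H male and 43 on the array labelled TiO2-H female, and the detected share of all genes was also highest on the latter, at 75.6% against 72.2% to 74.4%.

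Detection was counted by role, without a test. The drug and toxin group, which comprises Cyp2a, Cyp2b, Cyp2d, Cyp2e, Cyp2f, Cyp2g and Cyp3a, had 5 of 27 members detected on all 4 arrays and 17 on none. The epoxygenases here are all Cyp2c and Cyp2j genes, subfamilies known for forming epoxides from arachidonic acid. They were grouped by name alone, and not every member need have this activity. Of them, 7 of 19 were detected on all 4 arrays and 10 on none. Of the fatty acid hydroxylases, the Cyp4 genes with Cyp2u1, 9 of 18 were detected on all 4 arrays and 4 on none. Within this group the Cyp4f subfamily, which inactivates leukotrienes and hydroxylates fatty acids at their end, had 5 of 9 members detected on all 4 arrays and 1 on none. No Cyp2b gene was detected on all 4 arrays, and 4 of 5 were detected on none. The liver genes Alb, Apoa1 and Ahsg were detected on no array, Fgb only on the array labelled TiO2-H female, and Afp, Apoa2 and Trf on all 4, with a summed signal of the 7 liver markers between 7332 and 8153. Markers of choroid plexus and of meninges (5 of 5 each) were detected on all 4 arrays, as were Omp, Gng13 and Cnga2 of the 4 markers of olfactory epithelium, while the fourth, Cyp2g1, itself a member, was detected on no array (6.04 to 8.29). In limma 9 of 40 cell type and tissue markers (22.5%, against 19.5% of all genes) had an unadjusted p under 0.05, with adjusted p values of 0.20 to 0.25. As TiO2-H minus Sham on the log2 scale, the differences were -0.27 and -0.25 for the globin genes Hbb-bt and Hba-a1, -0.33 for Afp, 0.36 for P2ry12 of microglia and 0.21 for Olig1 of the oligodendrocyte lineage. They were 0.19 and 0.16 for Snap25 and Map2 of neurons, 0.17 for Cldn5 of endothelium and 0.15 for Dcn of meninges. The part of these tissues in the member values was not tested. Bulk RNA cannot tell fewer cells of a type from less RNA per cell.

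Exposure was compared within each labelled sex by the ratio of a TiO2-H array to the Sham array, after each array was scaled to its 75th percentile. A gene entered where it was detected on at least 1 of the 2 arrays. Where it was dim on 1 of them, that side was set to the lowest detected signal of the array, so that the fold change is a bound ("at least"), or to its own signal where this was higher. The thresholds were 1.5-fold and 0.67-fold, those of the study. On the arrays labelled male, 3 of 43 members reached 1.5-fold and 5 lay at 0.67-fold or less, which is 18.6% against 3.89% of all genes (2.06% higher and 1.83% lower). On the arrays labelled female, 3 of 44 were higher and 4 lower, which is 15.9% against 3.55% of all genes (1.59% higher and 1.97% lower).

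Members also passed more often than other genes between pools of equal exposure. Between the 2 Sham arrays 6 of 42 members (14.3%) passed a threshold, against 3.58% of all genes, and between the 2 TiO2-H arrays 5 of 45 (11.1%), against 3.6%. These comparisons use the same arrays as the comparisons by exposure. Among the 32 members detected on all 4 arrays, 2 passed on the arrays labelled male and 2 on those labelled female, against 1.43% and 1.56% of such genes. In the same 32, none passed between the Sham arrays (against 1.45%) and 2 between the TiO2-H arrays (against 1.02%). Members detected on only 1 of the 2 arrays, which entered through their brighter array, passed in 6 of 9 cases for the male label (all genes 46.9%) and in 2 of 9 for the female label (28.5%).

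**Figure D1:**
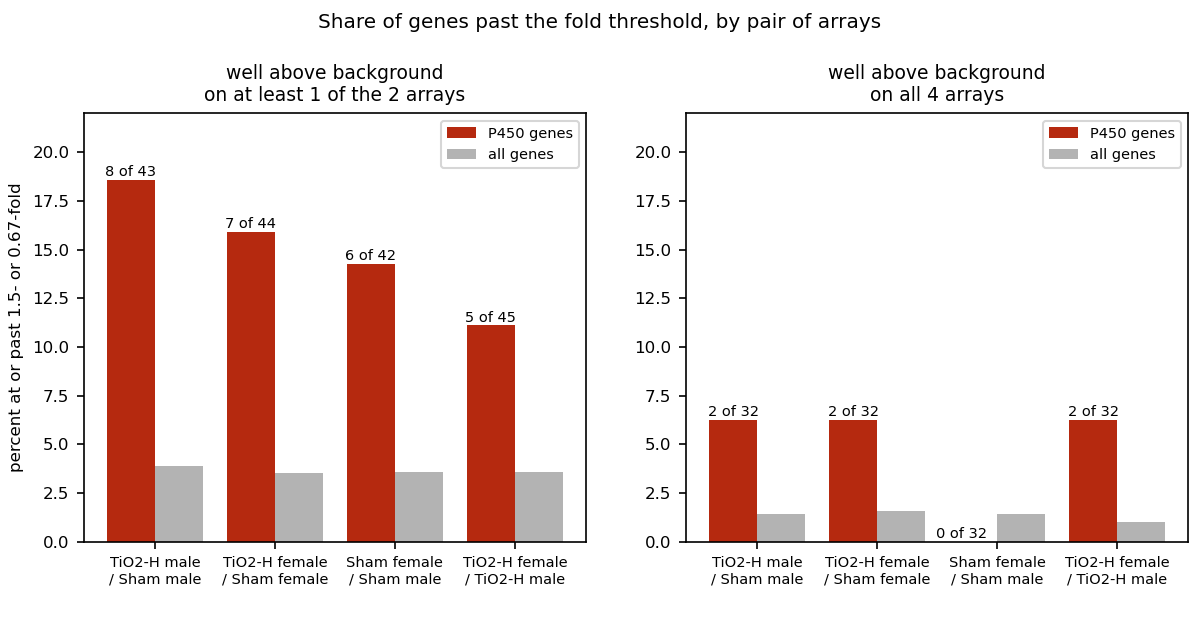
Percent of P450 genes (red) and of all genes (grey) at or past 1.5-fold or 0.67-fold for 4 pairs of arrays, among genes detected on 1 or both of the arrays compared (left) and on all 4 arrays (right). Bars for P450 genes carry their counts, with 8 of 43, 7 of 44, 6 of 42 and 5 of 45 at left, and 2, 2, 0 and 2 of 32 at right.

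In all, 14 members passed a threshold under at least 1 label, of which 3 were detected on all 4 arrays and 11 on 1 to 3 arrays. No member passed in the same direction under both labels with this scaling and floor. For Cyp4f39, which passed under the male label, the female-label value was a bound below the threshold, so that its call there is undetermined. Without scaling, or without the floor, Cyp4f39 was past 1.5-fold higher under both labels, against Sham arrays on which it was not detected. The study lists Cyp4f39 as higher in both sexes. Cyp4b1 passed in opposite directions. For 8 of the 48 members detected anywhere (16.7%, against 4.23% of 16154 genes), a single array stood at least 1.5-fold apart from the other 3, which lay within 1.5-fold of each other, with dim values at the floor. It was the high array in each case. Of the 683 genes so placed over all genes, 25.9% were high on Sham male and 27.2% on Sham female. A further 23.3% were high on labelled TiO2-H male and 19.5% on labelled TiO2-H female, and the few others were low on 1 array. Among members the high array was Sham male for Cyp2d12 and Cyp2w1, and Sham female for Cyp3a59, Cyp2u1 and Cyp4f14. It was the array labelled TiO2-H male for Cyp39a1 and Cyp4f40, and the array labelled TiO2-H female for Cyp27b1. Such genes made up 4 of the 8 member calls under the male label and 4 of the 7 under the female label, against 57.8% and 59.1% of the calls over all genes.

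Of the 32 members detected on all 4 arrays, 29 (90.6%, against 96% of such genes) stayed within a 1.5-fold range over all 4 arrays, and the exceptions were Cyp39a1, Cyp4b1 and Cyp4f15. Both TiO2-H arrays were above both Sham arrays for 4 of the 32 (12.5%, against 30.2% of such genes) and below them for 7 (21.9%, against 26.6%), and the groups overlapped for the other 21. Their median log2 fold change was -0.01 under the male label and -0.06 under the female label, against 0.00 and 0.01 for all such genes. The spread of a log2 fold change between the 2 Sham arrays, as a robust SD, was 0.15 over these members and 0.09 over all such genes.

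**Figure D2:**
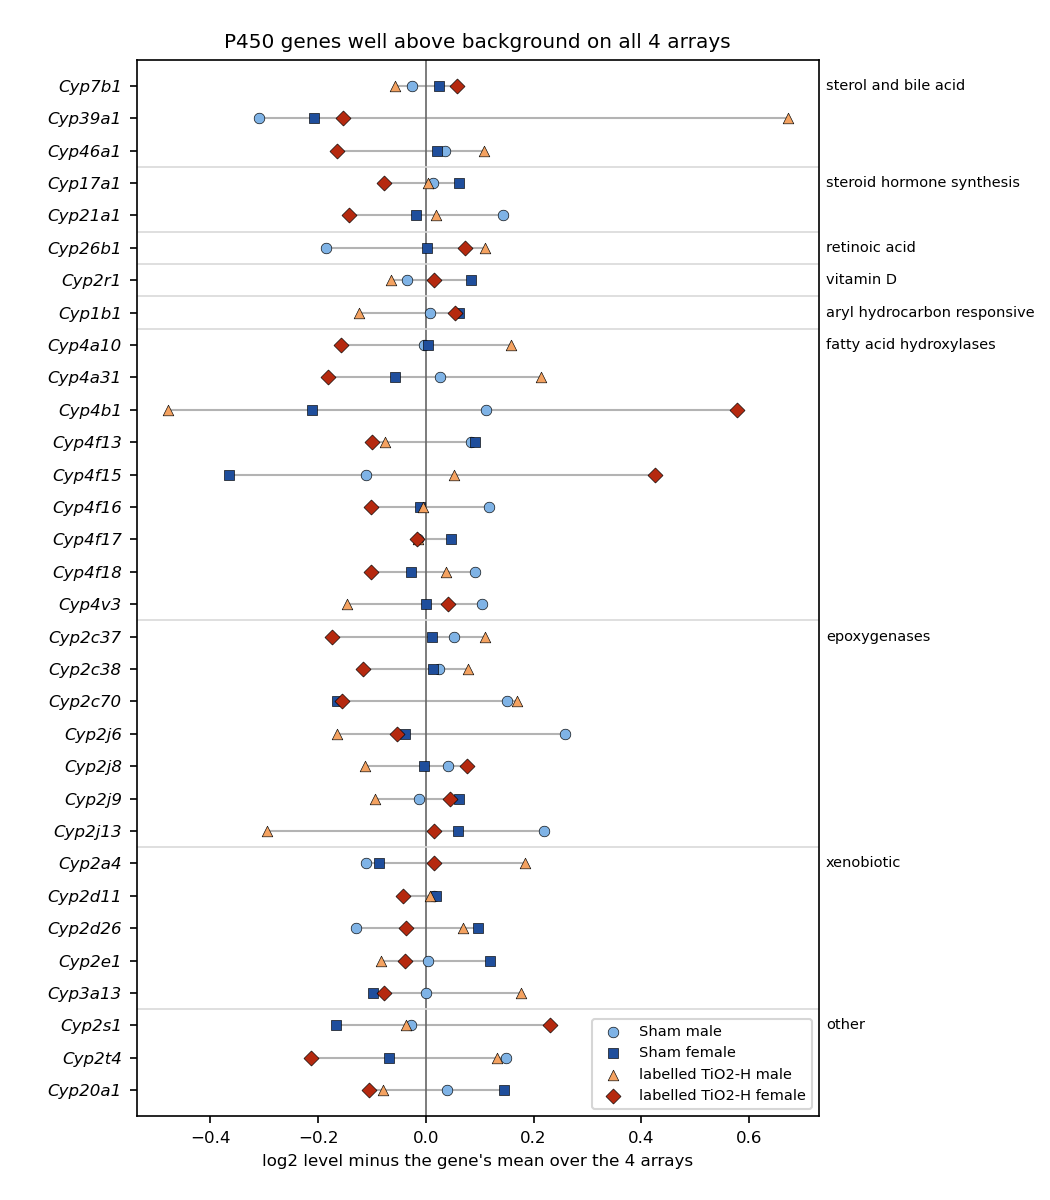
Log2 level on each of the 4 arrays minus the gene's own mean over the arrays, for the 32 P450 genes well above background on all 4 arrays, grouped by role. Each symbol is 1 array, and the grey line spans the 4; Cyp39a1 on the array labelled TiO2-H male, and Cyp4b1 and Cyp4f15 on the array labelled TiO2-H female, lie farthest to the right.

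Among the enzymes of cholesterol and bile acids, 3 of 6 were detected on all 4 arrays and 3 on none. Cyp39a1, which hydroxylates the oxysterol that Cyp46a1 makes from cholesterol, had signals of 595 on Sham male, 626 on Sham female, 1258 on the array labelled TiO2-H male and 712 on the array labelled TiO2-H female. It was thus high on 1 array only. Its log2 fold change was 0.98 under the male label, where the error of the ratio given by the scanner software was 0.20, and 0.06 under the female label. Between the 2 TiO2-H arrays it differed by -0.83, female over male label, and when the arrays were paired across the sex labels its fold change was 0.16 against Sham male and 0.88 against Sham female. The pituitary genes Gh and Pomc were also highest on that array. Gh had a signal of 301 there and was detected on no other array, and Pomc had 956 there against 570 to 590 elsewhere, whereas Prl and Pou1f1 were detected on no array and the summed signal of the 5 pituitary markers was 1418 there against 692 to 720 elsewhere. The part of these in the Cyp39a1 value was not tested.

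Cyp46a1, the neuronal enzyme that hydroxylates cholesterol for export from the brain, had signals of 594, 576, 668 and 555 in the order Sham male, Sham female, labelled TiO2-H male and labelled TiO2-H female, which is the order kept below, as fold changes are given for the male and then the female label on the log2 scale. The groups overlapped, with log2 fold changes of 0.07 and -0.18 under the male and female label. Cyp7b1, which hydroxylates oxysterols and neurosteroids, had signals of 614, 624, 643 and 699. After scaling these gave fold changes of -0.03 and 0.03, and the 4 arrays spanned 0.12 on the log2 scale.

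Of the steroid hormone enzymes, 2 of 6 were detected on all 4 arrays, 1 on 2 arrays and 3 on none. Cyp17a1, which makes androgen precursors, was bright on every array, at 7211, 7320, 7673 and 7273. Its log2 fold changes were -0.01 and -0.14, within the software's error of 0.20. Cyp21a1, which acts in corticoid synthesis, had signals of 199, 174, 195 and 175 with a log2 fold change of -0.12 under either label, again within the error. A second Cyp21a1 probe was detected on the Sham male array alone, at 66.0 against 6.85 to 9.35 on the others.

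Cyp19a1, the aromatase that converts androgens to estrogens, was near background. Its signals were 58.6, 38.4, 35.0 and 54.8, of which those of Sham female and labelled TiO2-H male were not detected. The ratio passed the threshold under the male label at -0.84, taken against its own dim signal, and was 0.38 under the female label. The high arrays were Sham male and labelled TiO2-H female, so that exposure groups overlapped, and Cyp19a1 also passed between the 2 Sham arrays (-0.58) and between the 2 TiO2-H arrays (0.64).

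In the retinoic acid group, the 3 Cyp26 genes break down this signal of the developing brain, and they differed sharply in detection. Cyp26b1 was bright, with signals of 4426, 4944, 5809 and 5684. Both TiO2-H arrays lay above both Sham arrays, with log2 fold changes of 0.29 and 0.07 against an error of 0.20, and the 2 Sham arrays differed by 0.19. In limma the TiO2-H pools were 0.18 higher (SE 0.08, adjusted p = 0.30 with Benjamini-Hochberg adjustment). Cyp26a1 and Cyp26c1 were detected on no array, with signals from 6.45 to 14.9. The promoters of Cyp26a1 and Cyp26b1 (RefSeq, build GRCm38.p6, 250 bases before to 50 after the start site, chr19:37697558-37697857, plus strand, and chr6:84593761-84594060, minus strand) are shown because retinoic acid receptors bind a repeat spaced by 5 bases in the Cyp26a1 promoter. Capitals mark AGTTCA repeated with any 5 bases between, searched on both strands.
Cyp26a1: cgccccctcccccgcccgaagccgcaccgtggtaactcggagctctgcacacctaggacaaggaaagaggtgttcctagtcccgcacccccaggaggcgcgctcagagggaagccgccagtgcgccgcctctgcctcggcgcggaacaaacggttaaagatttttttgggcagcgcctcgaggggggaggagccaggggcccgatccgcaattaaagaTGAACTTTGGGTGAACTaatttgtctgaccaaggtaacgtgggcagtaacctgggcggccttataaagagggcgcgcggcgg
Cyp26b1: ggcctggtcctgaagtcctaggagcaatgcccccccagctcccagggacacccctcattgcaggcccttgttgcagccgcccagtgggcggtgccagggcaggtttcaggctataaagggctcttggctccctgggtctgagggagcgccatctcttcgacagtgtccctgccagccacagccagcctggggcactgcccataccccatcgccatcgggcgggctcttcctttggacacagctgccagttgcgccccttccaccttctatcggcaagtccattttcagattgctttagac
The repeat was found in the Cyp26a1 promoter, on the reverse strand, and in 8 of all 32851 promoters of this length (0.0244%). These letters are not in the Cyp26b1 window, nor is the repeat of AGGTCA at the same spacing (3 of all promoters, 0.00913%) in either. Rara, Rarb and Rarg, which encode retinoic acid receptors, were detected on all 4 arrays at 4371 to 5145, 1602 to 1947 and 816 to 934.

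Of the vitamin D enzymes, Cyp2r1, which starts the activation of vitamin D, had signals of 1016, 1082, 1065 and 1130. Its fold changes were -0.03 and -0.07, within the error of 0.20. A second Cyp2r1 probe was detected on the array labelled TiO2-H female alone. Cyp27b1, which makes the active hormone, was detected on the array labelled TiO2-H female alone. Its signals were 29.8, 34.9, 27.8 and 87.1, so that it passed under the female label at 1.19, a value taken against its own dim signal, and it was at least 2.94-fold higher there than on labelled TiO2-H male. Cyp24a1, which degrades the hormone, and Vdr, its receptor, were detected on no array.

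The 3 Cyp1 genes are known targets of the aryl hydrocarbon receptor, which senses dioxins and polycyclic hydrocarbons. Cyp1b1 had signals of 469, 478, 458 and 521. Its log2 fold changes were -0.13 and -0.01, within the error of 0.21, and neither label passed a threshold. Cyp1a1 was detected on the array labelled TiO2-H male alone, with signals between 23.6 and 32.7, and its ratio there was 0.00 against the floor of the Sham male array. Cyp1a2 was detected on no array. The promoters of Cyp1a1 (chr9:57697363-57697662, plus strand) and Cyp1b1 (chr17:79715012-79715311, minus strand), from the same source, are shown because the receptor binds the core GCGTG. Capitals mark it on either strand (CACGC on the reverse).
Cyp1a1: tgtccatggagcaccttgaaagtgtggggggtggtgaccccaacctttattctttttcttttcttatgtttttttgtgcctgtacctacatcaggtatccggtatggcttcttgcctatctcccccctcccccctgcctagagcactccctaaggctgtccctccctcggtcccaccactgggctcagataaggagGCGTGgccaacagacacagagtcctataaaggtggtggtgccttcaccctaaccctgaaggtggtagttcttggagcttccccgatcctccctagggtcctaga
Cyp1b1: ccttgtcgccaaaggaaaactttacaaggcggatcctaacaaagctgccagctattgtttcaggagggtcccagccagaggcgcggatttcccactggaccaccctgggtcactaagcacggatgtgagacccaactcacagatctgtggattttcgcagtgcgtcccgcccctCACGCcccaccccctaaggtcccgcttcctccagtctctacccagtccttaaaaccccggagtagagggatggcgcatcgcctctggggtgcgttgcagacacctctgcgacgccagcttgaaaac
Each window held 1 match, and 32.4% of all promoters held at least 1. The receptor gene Ahr had signals of 722, 744, 798 and 881 with fold changes of 0.05 and 0.11, and its repressor Ahrr, itself a target, had 132, 177, 169 and 183. Neither passed a threshold. Tiparp and Nqo1, further genes that the receptor can induce, were detected on all 4 arrays, and their limma differences were 0.04 and -0.21 (adjusted p = 0.65 and 0.21).

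The fatty acid hydroxylases held 6 of the 14 members past a threshold. Under the male label 2 of 12 compared were higher and 1 lower, and under the female label 2 of 13 were higher and 2 lower. Past either threshold this is 3 of 12 and 4 of 13, beside 18.6% and 15.9% of all members compared and 3.89% and 3.55% of all genes, and the group was not tested against other members. Cyp4b1, a lung enzyme that hydroxylates fatty acids and activates furans, had signals of 50.6, 39.6, 35.9 and 75.03. The lowest and the highest array were both TiO2-H arrays, so that the log2 fold change was -0.59 (software's error 0.39) under the male label and 0.79 (error 0.35) under the female label. Paired across the sex labels, its values were 0.47 against Sham male and -0.27 against Sham female, with the sign turned in each case.

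Cyp4f15 was detected on all 4 arrays at 116, 95.6, 139 and 181. Both TiO2-H arrays lay above both Sham arrays. The log2 fold change was 0.16 (error 0.24) under the male label and 0.79 (error 0.25) under the female label, where it passed the threshold, and the TiO2-H pools were 0.48 higher in limma (SE 0.17, adjusted p = 0.26). The 2 Sham arrays differed by -0.26 and the 2 TiO2-H arrays by 0.37. Paired across the sex labels, its values were 0.54 against Sham male and 0.42 against Sham female, neither past the threshold.

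Cyp4f39, needed in skin for the ceramides of the water barrier, was the member with the lowest p in limma. Its signals were 22.4, 17.7, 49.9 and 50.3, and it was detected on both TiO2-H arrays and on neither Sham array. The groups did not overlap. It was at least 1.53-fold higher under the male label. Under the female label it was at least 1.45-fold higher, a bound that does not settle whether the gene passed the threshold. In limma the TiO2-H pools were 0.57 higher (SE 0.05, adjusted p = 0.20), but both Sham values were floors, so that the SE holds no spread of Sham signals, and the gene entered the fit through the TiO2-H arrays alone.

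Cyp4f14, known for leukotriene hydroxylation, had signals of 26.5, 82.8, 42.9 and 44.8 and was dim on Sham male alone. It was lower under the female label at -1.02 (error 0.32) and at least 1.32-fold higher under the male label. The Sham female array was the one apart, and it was at least 2.77-fold higher there than on Sham male. Cyp2u1, a fatty acid hydroxylase described from brain and thymus, had the same shape at 30.5, 83.8, 35.6 and 40.1, where Sham male and labelled TiO2-H male were dim. It was -1.20 (error 0.33) under the female label and 1.48 for Sham female over Sham male, taken against its own dim signal.

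Cyp4f40 was detected on the array labelled TiO2-H male alone, at 53.7 against 6.19 to 8.52 on the other arrays. It was at least 1.65-fold higher than Sham male. Cyp4x1 was detected on the array labelled TiO2-H female alone, with signals of 8.03 to 30.8, and passed no threshold.

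The other Cyp4 genes detected on all 4 arrays passed no threshold. Cyp4f13 had signals of 281, 277, 270 and 266, and both TiO2-H arrays lay below both Sham arrays after scaling, by -0.16 and -0.19 (error 0.21). In limma its difference was -0.17 (SE 0.04, adjusted p = 0.20). Cyp4f16 had signals of 246, 221, 242 and 227, Cyp4f17 had 226, 231, 241 and 242, and Cyp4f18 had 401, 363, 414 and 377. Over these 3 genes the fold changes lay between -0.12 and 0.00. Cyp4v3, the counterpart of the human gene for a crystalline retinal dystrophy, had 211, 192, 189 and 216, with fold changes of -0.25 and 0.04.

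Cyp4a10 and Cyp4a31, which are close paralogs, had signals of 134, 132, 161 and 130 and of 125, 115, 152 and 116. Both were highest on the array labelled TiO2-H male, and their fold changes were 0.16 and -0.16 for Cyp4a10 and 0.19 and -0.12 for Cyp4a31. Their probes may share targets, as may those of the Cyp2c, Cyp2d and Cyp3a genes, and values of such neighbors are not independent. A second Cyp4a10 probe was detected on the TiO2-H arrays alone. The other further probes of Cyp4a10 and Cyp4a31 were detected on no array.

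**Figure D3:**
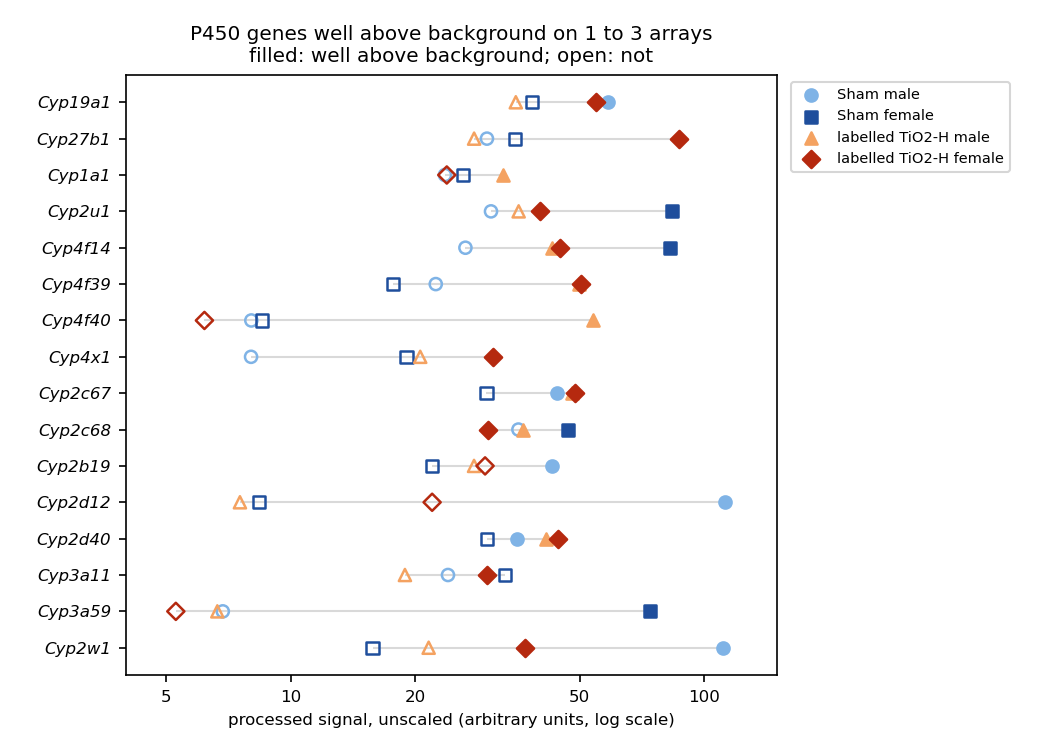
Processed signal before scaling (log axis, arbitrary units) on each array for the 16 P450 genes well above background on 1 to 3 arrays. Filled symbols were well above background and open symbols were not; Cyp2d12, Cyp2w1, Cyp3a59, Cyp2u1 and Cyp4f14 each have 1 Sham array far to the right.

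Among the epoxygenases, Cyp2j9, a form found in brain, had signals of 1151, 1189, 1163 and 1287, and its fold changes were -0.08 and -0.02. Cyp2j8 had 434, 413, 417 and 477, with -0.16 and 0.08, and its second probe was detected on no array. Cyp2j6 had 299, 239, 239 and 259, and Cyp2j13 had 138, 121, 103 and 129. For these last genes the Sham male array was the highest, and the male label gave -0.42 (error 0.21) and -0.52 (error 0.24), short of the threshold, while the female label gave -0.01 and -0.05. Their other probes differed. A second Cyp2j6 probe gave 0.17 and 0.39. A second Cyp2j13 probe detected on all 4 arrays gave 0.45 and -0.20, whereas the remaining one was detected on Sham male alone, at 44.2 against 7.42 to 9.19, and was lower under the male label at -0.68, past the threshold.

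Of the Cyp2c genes, Cyp2c38 had signals of 171, 166, 189 and 166, Cyp2c37 had 65.0, 61.9, 72.4 and 59.7, and Cyp2c70, a bile acid hydroxylase, had 115, 91.1, 125 and 100. Their fold changes lay between -0.18 and 0.06, and none passed. Second probes of Cyp2c38 (6.02 to 8.19) and Cyp2c37 (5.58 to 11.0) were detected on no array. Cyp2c68 had signals of 35.6, 46.9, 36.4 and 29.98 and was dim on Sham male. It was lower under the female label at -0.78, with an error of 0.41, and the male label gave no fold. Cyp2c67 was dim on Sham female alone, with signals of 29.8 to 48.8, and passed no threshold.

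In the drug and toxin group 2 of 8 members compared were lower under the male label (all genes 1.83%) and 1 of 8 under the female label (1.97%), and none was higher (all genes 2.06% and 1.59%), which 8 genes are too few to read. Each of these 3 was detected on a single array, which was a Sham array. Cyp2d12 had signals of 112, 8.38, 7.54 and 22.0, at least 4.07-fold lower on labelled TiO2-H male than on Sham male, and at least 3.47-fold lower on Sham female than on Sham male. Cyp2b19, known from skin, had 42.9, 21.9, 27.8 and 29.5 and was at least 1.56-fold lower. Cyp3a59 had 6.86, 73.9, 6.65 and 5.28, at least 3.47-fold lower on labelled TiO2-H female than on Sham female. It was at least 2.47-fold higher on Sham female than on Sham male, and its second probe was detected on no array.

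The members of this group detected on all 4 arrays passed no threshold. Cyp2d11 had signals of 778, 765, 828 and 802 and spanned 0.06 on the log2 scale. Cyp2d26 had 78.9, 90.7, 96.96 and 90.5, and Cyp3a13 had 133, 122, 161 and 135. Cyp2a4, a steroid hydroxylase, had 75.1, 74.96, 98.6 and 88.1, above both Sham arrays on both TiO2-H arrays, with fold changes of 0.29 and 0.10 against an error of 0.26. A second Cyp2a4 probe, detected on the TiO2-H arrays alone, gave 0.31 and -0.175, each against the floor of the Sham array. Cyp2e1, which oxidizes ethanol, had 54.4, 57.8, 54.8 and 56.8, with fold changes of -0.09 and -0.16. Second probes of Cyp3a13 and Cyp2e1 were detected on no array. Cyp2d40 was dim on Sham female, at 35.2, 29.8, 41.5 and 44.3, and was 0.24 higher in limma (SE 0.07, adjusted p = 0.22), with the Sham female value at the floor. Cyp3a11, an inducible drug enzyme of liver, was detected on labelled TiO2-H female alone, with signals of 18.9 to 32.9, and passed no threshold.

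Of the 4 members outside these groups, Cyp2w1, known from fetal gut and tumors, had signals of 111, 15.8, 21.6 and 36.9. It was at least 4.04-fold lower on labelled TiO2-H male than on Sham male, and at least 1.06-fold higher under the female label. Its Sham male array was the one apart, at least 3.45-fold above Sham female. Cyp2s1, an epithelial enzyme, had 527, 470, 561 and 677, with fold changes of -0.01 and 0.40 (error 0.21). Cyp20a1, whose substrate is not known, had 393, 414, 387 and 381, with both TiO2-H arrays below both Sham arrays (-0.12 and -0.25), and its limma difference was -0.19 (SE 0.05, adjusted p = 0.22). Cyp2t4 had 92.5, 78.1, 97.8 and 77.4, with fold changes of -0.02 and -0.14.

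**Figure D4:**
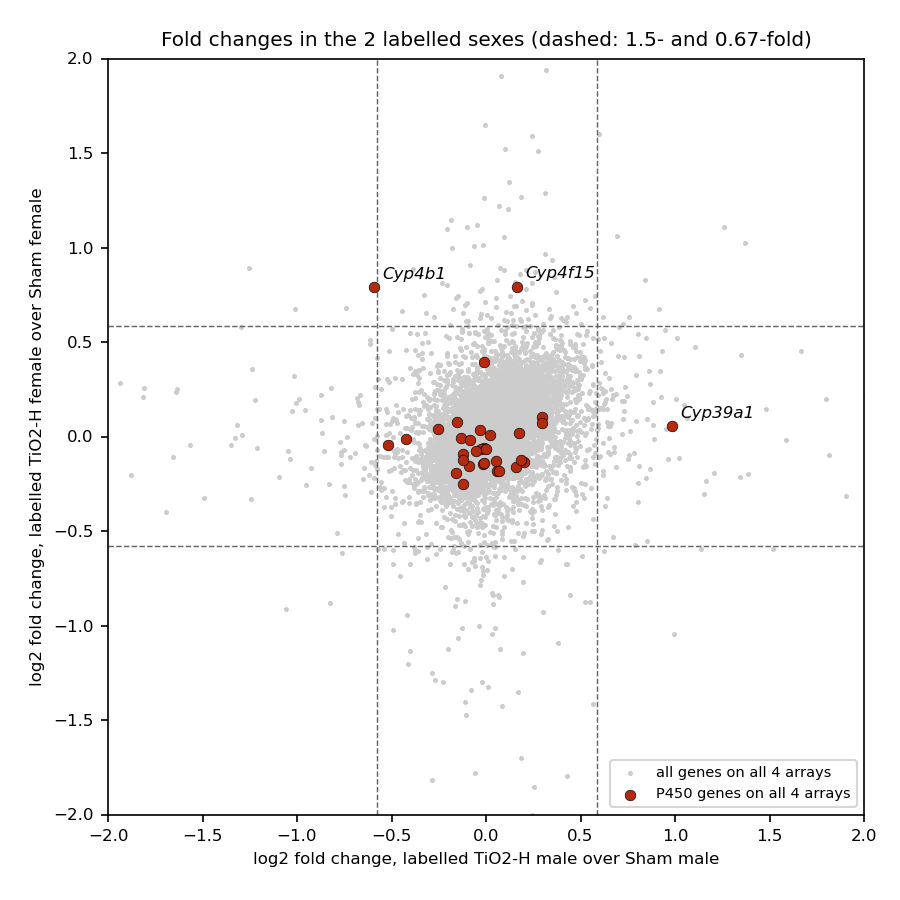
Log2 fold change under the male label (x) and under the female label (y) for all genes well above background on all 4 arrays (grey) and the 32 P450 genes among them (red), with dashed lines at 1.5-fold and 0.67-fold. Cyp39a1, Cyp4b1 and Cyp4f15 lie past a line, no P450 gene lies past both in the same direction, and 27 genes lie outside the plotted range.

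Over both labels, the 2 TiO2-H pools were set against the 2 Sham pools with limma over 15252 genes, in which pools of different label stand in for replicates. Of these genes 0 had an adjusted p under 0.05 and 2968 (19.5%) an unadjusted p under 0.05. Of the 40 members in the fit, 0 passed after adjustment and 5 (12.5%) before it, namely Cyp4f39, Cyp4f13, Cyp2d40, Cyp20a1 and Cyp4f15. The lowest adjusted p over members was 0.20. For a single gene an exact permutation test of 2 against 2 arrays cannot give a p below 0.33. The median difference was -0.04 over the 32 members detected on all 4 arrays and 0.01 over all such genes.

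The partners of the P450 enzymes were detected throughout. All 9 electron donors and binding partners were detected on all 4 arrays and none passed a threshold. Por, the reductase that serves the enzymes of the endoplasmic reticulum, had signals of 8132, 7727, 8909 and 8836 and fold changes of 0.03 and 0.06. Cyb5b, a cytochrome b5 of the outer mitochondrial membrane, was 0.19 higher on the TiO2-H pools in limma (SE 0.05, adjusted p = 0.22). Fdxr, which feeds mitochondrial P450 enzymes through Fdx1, was 0.11 higher (SE 0.04, adjusted p = 0.25), while Fdx1 itself differed by -0.12 (adjusted p = 0.28). All 9 heme synthesis genes and all 4 heme breakdown genes were detected on all 4 arrays and none passed. Alas1, the rate-limiting enzyme of heme synthesis, had fold changes of -0.05 and -0.07, and Hmox1, the inducible heme oxygenase, had -0.09 and -0.19.

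Of 18 receptors and partners that control P450 genes, 14 were detected on all 4 arrays and 3 on none, including Nr1i2, the receptor that induces Cyp3a genes. Nr1i3, which induces Cyp2b genes, was the only one past a threshold. Its signals were 31.2, 60.5, 51.6 and 117, with Sham male dim, and it was 1.55-fold higher under the male label, taken against its own dim signal, and 0.82 higher on the log2 scale under the female label. The groups overlapped, and its limma difference was 0.73 with an SE of 0.56 (adjusted p = 0.50). The retinoic acid receptors Rara and Rarb, named after their values were seen, had limma differences of 0.11 and 0.14 (adjusted p = 0.24 for each).

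Of 11 enzymes that act after P450 enzymes, 10 were detected on all 4 arrays, Ugt1a6a on none, and none passed a threshold. Sult1a1, which sulfates phenols, was the furthest apart, with signals of 1524, 1586, 1329 and 1374 and a limma difference of -0.32 (SE 0.05, adjusted p = 0.20). Gstm1, which conjugates glutathione, differed by -0.16 (adjusted p = 0.24). Ephx2, which hydrolyzes the epoxides that Cyp2c and Cyp2j enzymes form, had signals of 198, 204, 232 and 260.7 and differed by 0.18 (adjusted p = 0.29).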

How the data were processed

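The members and gene lists were chosen with earlier results of these data known. Each of 4 pools of RNA was hybridized to 1 array. The authors deposited the scanner output, read with Feature Extraction (version 10.10.1.1, per the labels), and a table holding the same values, all as intensity. The software had subtracted local background and spatial trend, given dim spots small positive values, and applied no scaling between arrays.

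Control spots and spots marked as outliers were left out, leaving 55681 probes on 59305 spots. Of 22765 RefSeq accessions on the array, 94.3% were named, through a gene table (assembly GRCm38.p6). Members were chosen by symbol, and 5 further symbols of the pattern had no matched probe. Signals were divided by the array's 75th percentile (810 and 795 on the male and female Sham arrays, 867 and 871 on the male and female TiO2-H arrays) and expressed as log2, since the authors' methods state no other scaling. Values below detection were raised to the lowest detected signal of the array (30.4, 31.7, 29.5 and 23.3 in the same order) where they lay under it. The software's error covers 1 spot, not the spread between animals or pools.

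Named were all members detected on all 4 arrays, those detected on fewer that passed 1.5-fold or 0.67-fold, and the 5 of lowest limma p. The promoters were chosen after the values were seen. The promoter table held 68 of 89 members (76.4%), too few for any comparison of base content over members. limma 3.58.1 (R 4.3.3; genes detected on at least 2 of 4 arrays, no sex term, Benjamini-Hochberg adjustment) compared 2 with 2 pools, which measures only the spread between these pools. Tables were made with pandas 2.3.3 and numpy 2.4.6 under Python 3.11.15, and the fit and the fold rule were checked on simulated data. No background correction on mean signals was possible, so normexp with an offset of 50 was run on median signals. The alternatives were that correction, other scalings (none, quantile, the deposited table), filters, no floor, the mean of or every probe, outlier spots kept, arrays paired across the sex labels, a threshold of 2-fold, sex terms, and each array left out of limma. CpG island arrays were not analysed here.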

Additional observations from a re-analysis of the deposited data

Results flagged for a closer look

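Cyp4b1 passed the thresholds in opposite directions under the 2 sex labels, with log2 fold changes of -0.592 (male label) and 0.79 (female label). With 1 array per group this difference was not tested, and the sex-linked genes go against the labels of both TiO2-H arrays. Its signals were 50.6, 39.6, 35.9 and 75.03 on Sham male, Sham female, labelled TiO2-H male and labelled TiO2-H female, on arrays whose lowest detected signals were 30.4, 31.7, 29.5 and 23.3.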

How the results depend on the processing

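The count of members past a threshold, 8 under the male label and 7 under the female label, rested on dim probes and on the sex labels. It was 5 and 2 with normexp, 2 and 2 with detection on all 4 arrays, and 2 and 4 at 2-fold and 0.5-fold. Detection on both arrays of a pair gave 2 under the male label, and arrays paired across the sex labels gave 5 with Sham male. The other settings, among them 1 floor for all arrays and centring on genes detected on all 4 arrays, which were chosen after the data were seen, gave 6 to 10 and 5 to 9. The split of 3 higher and 5 lower under the male label became 3 and 3 without scaling, which shifted the median of all genes by 0.098, and 2 and 3 with normexp, and the split of 3 and 4 under the female label became 5 and 4 (shift 0.143) and 0 and 2. Of 173 recomputed fold changes of single members past a threshold, 171 kept their sign. Only 117 moved by less than 0.087, the robust SD between the Sham arrays over genes detected on all 4 arrays. The filters and the deposited table reuse the same values, so that those fold changes could not move. The signs that turned were those of Cyp4b1, at 0.466 and -0.268 with arrays paired across the sex labels. With normexp, Cyp4b1 under the male label went from -0.592 to -0.024. Without the floor, Cyp4f39 under the male label went from 0.614 to 1.054. It then also passed under the female label, as it did without scaling, so that the lack of a member past a threshold in the same direction under both labels rests on these steps. The count of members detected on all 4 arrays stayed at 32 with outlier spots kept and with any probe of a gene. The latter setting could not lower the count, since the brightest probe already stood for each gene. In limma 0 members had an adjusted p under 0.05 in every setting, which include sex as labelled or crossed as a term and leaving out each array (0 in each), against 0 to 3 of all genes. Members with an unadjusted p under 0.05 numbered 5, and 2 (sex as labelled as a term) to 13 (normexp) otherwise. The lowest adjusted p over the 5 named members was 0.0679, without scaling. No paired analysis was possible by replicate number because each group had 1 array, and the fits with sex as a term pair the arrays by label instead (2 members with an unadjusted p under 0.05 as labelled, 9 with the labels crossed). Signal over background limits the 57 members not detected on all 4 arrays.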
